A study of Mus musculus with 2 samples.

Results

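These 108 genes are those more than 4-fold higher in the 3bKO library than in the fl/fl library, after a set of sarcomere, muscle metabolism, class I and II histocompatibility, macrophage and other genes had been left out by name. They were taken from 628 genes with a value in both libraries. Of the 628, 148 were more than 4-fold higher, which is 23.6% of the table, and 40 of the 148 were among the genes left out. Both libraries were made from brown adipose tissue of C57BL/6 mice on a diet with 60% fat for 20 weeks, 1 library for the genotype fl/fl and 1 for 3bKO. The labels give neither age nor sex, do not name a Cre line, and do not say whether animals were pooled. They do not spell out what 3b stands for. With 1 library per genotype there was no replicate error, no test was run, and every ratio sets one library against another. Since the ratio chose the genes, it is given here as a description only. The table was already a selection, which its name describes as filtered for differential expression, so genes of like level may be absent. In it 81.5% of genes were higher in 3bKO, and which library is which rests on the column headings alone. The table was deposited under a name that contrasts Myf5 with D3b and does not tie either to a genotype, so a Cre driver cannot be given.

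Skeletal muscle fibres contract when calcium, released from the sarcoplasmic reticulum through the ryanodine receptor, lets myosin heads bind actin within the sarcomere. The sarcomere is held in register by giant proteins and by the Z-disc, is tied to the surface membrane at costameres, and is renewed by muscle-restricted ubiquitin ligase adaptors and chaperones. Brown adipocytes and skeletal muscle arise in part from shared embryonic precursors that express Myf5.

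Many of the 108 genes were muscle genes, although the best known sarcomere genes had been set aside. Of 10 lists of muscle genes, which cover this machinery and also metabolism, modifying enzymes, regulators, the neuromuscular junction, stem cells and secreted factors and hold 360 genes in all, 103 were in the table and 71 were among the 108. Of the 103, 101 were higher in 3bKO, beside 81.5% of all 628 listed genes. The lists were chosen with earlier results of these data known. Some of their genes, such as Lep and Dcn, were also on lists for other cell types. Of the 108, 0 were on any of 14 lists for other cell types. Clec7a, a macrophage receptor with a ratio of 4.53, would have been in the group had the rule not left it out by name. The fibroblast and matrix list had 16 genes in the table and the macrophage list 15. The lists for cardiac muscle, B cells, T and natural killer cells, and nerve had 0, so they could give no member. The count of 0 therefore says little about other cell types. The other 37 genes were on no list. Titin, nebulin, tropomyosin and telethonin are sarcomere proteins too, so the group is not one of genes outside the sarcomere, and it is described here by its rule. The 4 genes proposed as its markers, Mlf1, Mettl21c, Asb11 and Mylk2, were all in it. They were named together with the rule, so nothing is read from this.

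The level is given in FPKM, the fragments counted for a gene relative to the length of its transcript and to the depth of sequencing, which allows genes of different length to be set side by side. The 108 genes were low in fl/fl, with a median of 0.38 FPKM (range 0.01 to 9.32), and 91 of them stood below 1 FPKM there. In 3bKO the median was 3.79 FPKM (range 0.49 to 157), with 6 below 1 FPKM and 20 above 10 FPKM. Their values summed to 71.3 FPKM in fl/fl against 987 FPKM in 3bKO, and the 10 highest genes held 51.7% of the second sum. The 40 genes left out by name summed to 84.9 FPKM in fl/fl against 2605 FPKM in 3bKO and were past the same threshold by the choice of genes. Their part in the result was not tested. In tissue libraries of this kind, more cells of a type and more RNA per cell cannot be told apart. The median log2 ratio of the 96 genes with a value above 0.01 in fl/fl was 3.48, beside 0.95 over all listed genes above 0.01 in both libraries.

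**Figure D1:**
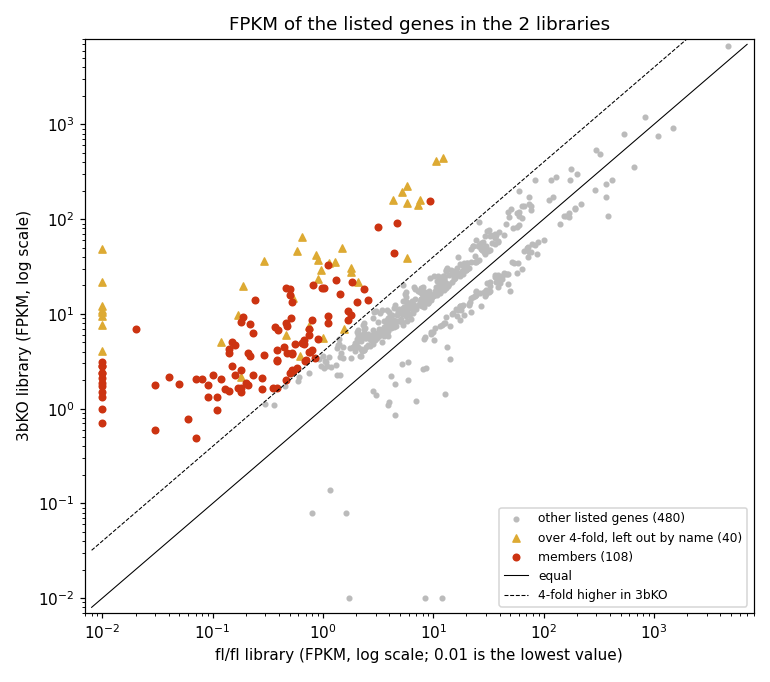
FPKM in the fl/fl library (x axis) against FPKM in the 3bKO library (y axis), both on log scales, for the 628 listed genes. Red points are the 108 genes, triangles the 40 genes left out by name, and grey points the other listed genes, and the red points lie above the dashed 4-fold line mostly at less than 1 FPKM in fl/fl.

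Just inside the threshold were Dpysl3 at 4.04, Egr2 at 4.33 and Ptpro at 4.34, and just outside it were Cyp26b1 at 3.86, Znf41-ps at 3.84 and Atp5g1 at 3.84.

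Sequence was examined because it is a property that the ratio did not use. RefSeq promoter windows (GRCm38.p6, 250 bases before to 50 after a transcription start, first start listed) were found for 77 of the 108 genes. The site of MEF2, a transcription factor family of muscle, heart and neurons, was searched as its 10-base consensus on both strands. It was present in 14 of the 77 windows (18.2%), in 2.58% of 388 windows of the other listed genes and in 2.92% of 17492 windows of protein-coding genes. All 14 windows belonged to the 49 windows of genes on the muscle lists, and 0 of the 28 other windows held it. In 12 of the 14 the match began 30 to 110 bases before the start, a stretch chosen after the positions were seen, in which 30.6% of all protein-coding windows with a match had theirs. The 6 of these genes with the highest 3bKO level are shown, as the 200 bases before the start, read 5′ to 3′ on the strand of the gene. Capitals mark the MEF2 match (a run of 10) and the E-box CAGCTG (a run of 6).
Pvalb: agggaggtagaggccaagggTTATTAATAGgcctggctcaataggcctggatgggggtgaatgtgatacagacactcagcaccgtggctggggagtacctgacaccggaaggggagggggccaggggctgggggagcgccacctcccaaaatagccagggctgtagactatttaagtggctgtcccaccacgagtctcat
Pgam2: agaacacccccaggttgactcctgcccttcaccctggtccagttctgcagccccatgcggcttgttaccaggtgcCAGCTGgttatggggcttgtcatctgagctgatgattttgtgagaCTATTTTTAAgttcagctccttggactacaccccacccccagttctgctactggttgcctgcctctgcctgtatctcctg
Klhl41: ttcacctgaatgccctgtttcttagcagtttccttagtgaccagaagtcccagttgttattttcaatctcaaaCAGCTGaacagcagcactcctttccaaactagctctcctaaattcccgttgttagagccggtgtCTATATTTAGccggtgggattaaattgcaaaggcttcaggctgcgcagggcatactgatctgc
Xirp2: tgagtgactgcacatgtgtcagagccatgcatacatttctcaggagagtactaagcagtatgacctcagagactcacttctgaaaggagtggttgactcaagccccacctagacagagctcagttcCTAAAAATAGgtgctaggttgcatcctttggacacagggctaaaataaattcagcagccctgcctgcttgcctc
Tcea3: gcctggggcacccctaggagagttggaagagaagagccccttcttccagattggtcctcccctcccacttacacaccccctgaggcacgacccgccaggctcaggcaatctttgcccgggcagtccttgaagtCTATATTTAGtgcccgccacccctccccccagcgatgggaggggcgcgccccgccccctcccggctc
Ttn: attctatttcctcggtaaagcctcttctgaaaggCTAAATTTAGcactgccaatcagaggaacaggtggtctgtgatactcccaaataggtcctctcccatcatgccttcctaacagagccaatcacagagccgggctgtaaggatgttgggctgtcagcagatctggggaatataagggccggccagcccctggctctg

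The stretch of Pvalb lies at chr15:78206401-78206600 on the minus strand. The stretch of Pgam2 lies at chr11:5803797-5803996 on the minus strand. The stretch of Klhl41 lies at chr2:69669920-69670119 on the plus strand. The stretch of Xirp2 lies at chr2:67445802-67446001 on the plus strand. The stretch of Tcea3 lies at chr4:136247757-136247956 on the plus strand. The stretch of Ttn lies at chr2:76982548-76982747 on the minus strand. The match began 80 bases before the start in Pgam2, 63 in Klhl41, 74 in Xirp2, 67 in Tcea3, 166 in Ttn and 180 in Pvalb. The E-box CAGCTG, one form of the site CANNTG that myogenic factors bind, reads the same on both strands. It was in 27 of the 77 windows (35.1%), beside 23.5% of windows of the other listed genes and 15.1% of protein-coding windows, and 6 of the 14 windows with a MEF2 match also held it. Any form of CANNTG was common, in 81.8% of the windows of the 108 genes and in 68.8% of protein-coding windows. TATAAA, which can overlap a MEF2 match, was in 16.9% and 13.3%, and the CArG box, the site of serum response factor, was in 2.6% and 1.54%. The ratio of observed to expected CpG had a median of 0.37, against 0.58 for protein-coding windows. No difference from the genes left out by name was tested. Among 34 windows of those genes, all more than 4-fold higher too, 41.2% held CAGCTG, 11.8% a MEF2 match and 11.8% a CArG box, and the median CpG ratio was 0.29. These are matches of letters, and binding was not measured.

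**Figure D2:**
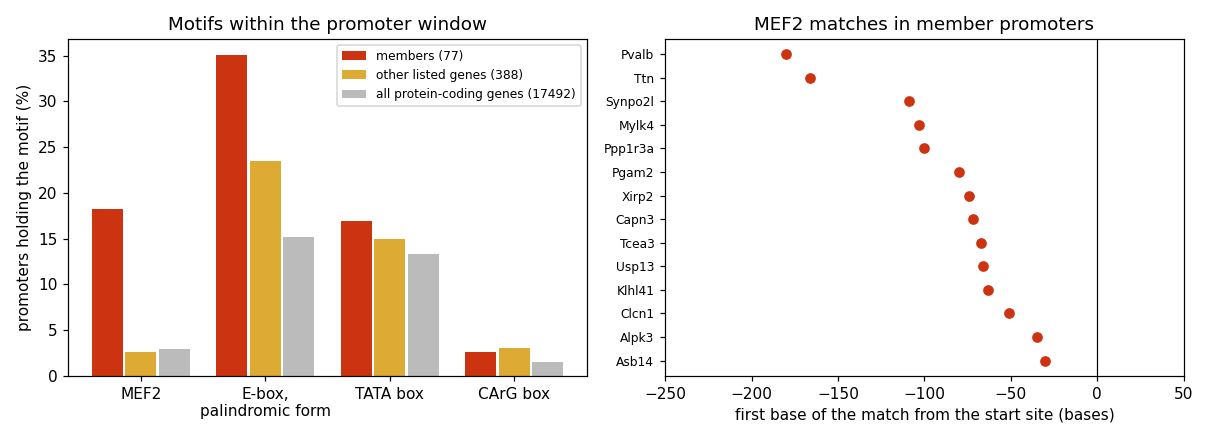
Left, percent of promoter windows that hold each motif for the 77 windows of the 108 genes, the 388 of other listed genes and all 17492 protein-coding windows. Right, distance in bases from the start site to the first base of each of the 14 MEF2 matches, with 12 of them between 30 and 110 bases upstream.

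Genes of calcium release and buffering, 9 in all, summed to 8.73 FPKM in fl/fl against 148 FPKM in 3bKO. Pvalb, the calcium buffer of fast fibres, was 4.65 FPKM in fl/fl against 91.1 FPKM in 3bKO, a ratio of 19.6 and the second highest 3bKO level of the 108 genes. Ryr1, the release channel of the sarcoplasmic reticulum, was 0.23 FPKM and 6.28 FPKM. Around the channel, the ratio varied. It was 46.0 for Jsrp1, a protein of the junctional reticulum, 25.8 for the luminal calcium-binding protein Hrc, 15.8 for triadin (Trdn), 8.68 for junctophilin 2 (Jph2) and 6.58 for Tmem38a, a cation channel of the reticulum. Dhrs7c, an enzyme of the same membrane, stood at the lowest table value in fl/fl and at 2.38 FPKM in 3bKO. Homer2, a scaffold protein, had the lowest 3bKO level of all 108 genes, 0.49 FPKM, against 0.07 FPKM in fl/fl. Of 45 genes on the list for calcium handling and excitation, 16 were in the table, all higher, and 13 of them were among the 108. The other 3, Bin1, Srl and Ehd4, had ratios of 1.95, 1.82 and 1.56.

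Genes grouped under surface channels, membrane repair and the costamere, 11 in all, ranged from 0.71 to 14.1 FPKM in 3bKO. Scn4a, the sodium channel that carries the muscle action potential, was 0.03 FPKM in fl/fl against 1.78 FPKM in 3bKO. Rounding of the deposited values to 2 decimals allows its ratio of 59.3 to lie between 50.7 and 71.4, and the ratio was 14.5 with a pseudocount of 0.1 and 2.70 with one of 1. The chloride channel Clcn1, which sets the resting excitability of the fibre, was 0.11 FPKM and 1.34 FPKM, and the potassium channel Kcna7 was 0.17 FPKM and 1.65 FPKM. All of these channels were thus below 2 FPKM in 3bKO. Sgca, which encodes a protein of the dystrophin-associated complex, was 0.23 FPKM and 2.29 FPKM. Trim72, which helps to reseal torn membranes, had a ratio of 14.2, and melusin (Itgb1bp2), which binds integrin, one of 33.9. The group also held Cavin4 of the caveolae, the beta spectrin Sptb, the reticulon Rtn2 and the anoctamin Ano5. Rtn2 had the highest level, 2.58 FPKM in fl/fl against 14.1 FPKM in 3bKO.

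**Figure D3:**
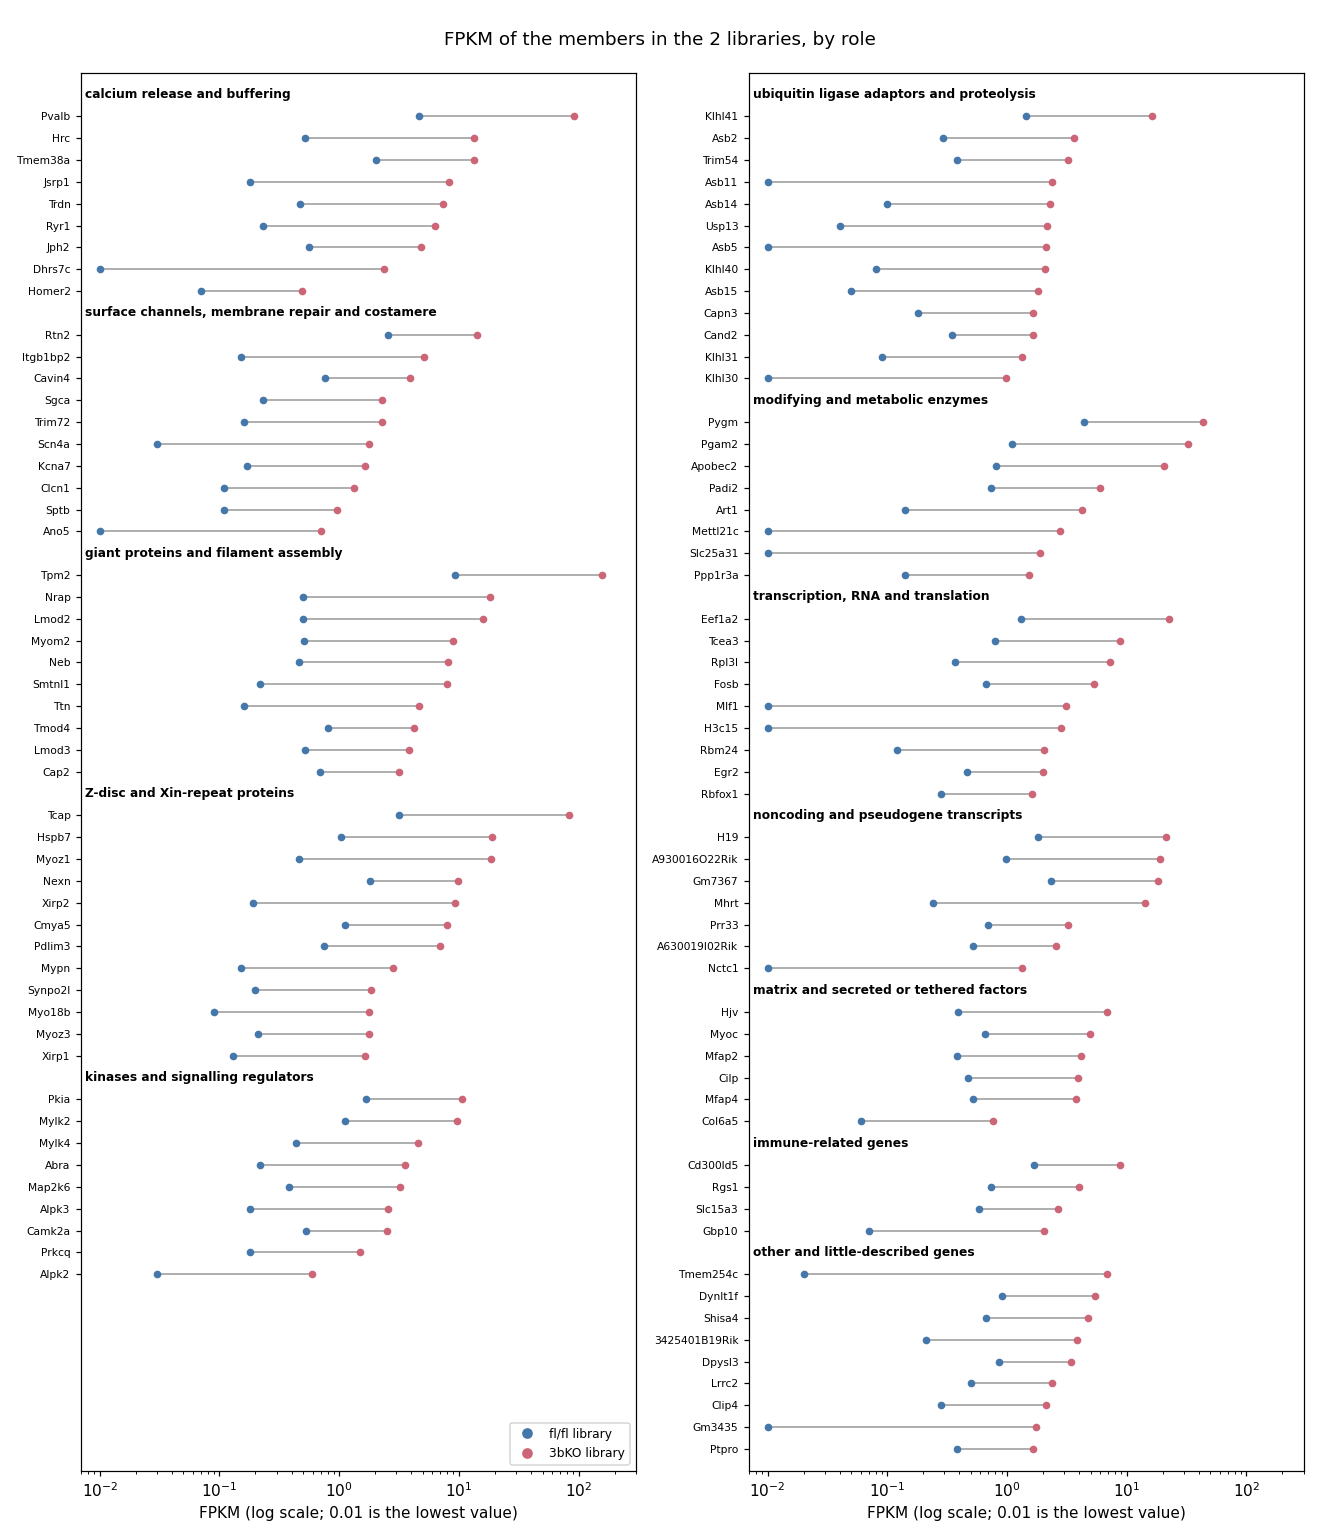
FPKM of the genes reported here, out of the 108, in the fl/fl library (blue) and in the 3bKO library (red), on a log scale, grouped by role. In each of the 12 groups the red points lie to the right, from 0.49 FPKM for Homer2 to 157 FPKM for Tpm2, and the blue points furthest to the left stand at 0.01.

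The giant proteins and filament genes numbered 11. Tpm2, the beta tropomyosin of the thin filament, was 9.32 FPKM in fl/fl, the highest fl/fl level of the 108 genes, and 157 FPKM in 3bKO. Its relative Tpm1, which many cell types express, was 83.3 FPKM and 261 FPKM, so that it stayed under the threshold with a ratio of 3.13. The difference in level was nonetheless 178 FPKM for Tpm1 and 148 FPKM for Tpm2. Titin (Ttn), the molecular spring from Z-disc to M-band, was 0.16 FPKM and 4.69 FPKM, and nebulin (Neb), the ruler of the thin filament, 0.46 FPKM and 8.07 FPKM. Their ratios were 29.3 and 17.5. The actin nucleators Lmod2 and Lmod3 differed, with ratios of 31.7 and 7.37. Nrap, found at the ends of growing myofibrils, was 0.50 FPKM and 18.2 FPKM. Myom2 of the M-band, Smtnl1, the filament cap Tmod4 and Cap2 had ratios of 17.6, 36.0, 5.23 and 4.59. The list for filament accessory genes differed from this group, with Hspb7, Mylk2 and Mylk4 and without Nrap and Tmod4. Of its 45 genes, 21 were in the table, all higher, and 12 were among the 108.

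Z-disc and Xin-repeat proteins numbered 12, with a median of 0.34 FPKM in fl/fl against 7.47 FPKM in 3bKO. Telethonin (Tcap), which caps titin at the Z-disc, was 3.16 FPKM in fl/fl against 83.7 FPKM in 3bKO. The calsarcins, which tether calcineurin, differed from each other: Myoz1, the form of fast fibres, was 0.46 FPKM and 18.6 FPKM, and Myoz3 was 0.21 FPKM and 1.76 FPKM. The Xin-repeat pair also differed, with Xirp2 at 0.19 FPKM and 9.20 FPKM and Xirp1 at 0.13 FPKM and 1.63 FPKM. The small heat shock protein Hspb7 had a ratio of 18.4, whereas Hspb6, at 25.8 FPKM and 93.2 FPKM, had one of 3.61. Mypn, Myo18b, Pdlim3, Synpo2l, Cmya5 and Nexn had ratios from 5.44 for Nexn to 19.8 for Myo18b. Of 42 genes on the list for the Z-disc, M-band and costamere, 23 were in the table, all higher, and 18 were among the 108.

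The ubiquitin ligase adaptors were the group with the lowest fl/fl levels, with a median of 0.09 FPKM in fl/fl against 2.11 FPKM in 3bKO over 13 genes. The table held 5 genes of the Asb family, which join substrates to cullin ligases, and all 5 were among the 108. Asb5 and Asb11 stood at the lowest value in fl/fl with 3bKO levels of 2.11 FPKM and 2.39 FPKM. Asb2 was 0.29 FPKM and 3.65 FPKM, Asb14 was 0.10 FPKM and 2.29 FPKM, and Asb15 was 0.05 FPKM and 1.81 FPKM. The family thus lay between 1.81 and 3.65 FPKM in 3bKO. Of the kelch proteins the table held 4, again all among the 108. Klhl41 and Klhl40, which stabilise thin filament proteins, were 1.44 FPKM and 16.2 FPKM, and 0.08 FPKM and 2.08 FPKM. Klhl30 stood at the lowest value in fl/fl and at 0.98 FPKM in 3bKO, and Klhl31 was 0.09 FPKM and 1.33 FPKM. Usp13, a deubiquitinase, was 0.04 FPKM and 2.17 FPKM, with a ratio of 54.3 that was 16.2 with a pseudocount of 0.1 and 3.05 with one of 1. The ligase Trim54, the muscle calpain Capn3 and Cand2, a regulator of cullin ligases, had ratios of 8.50, 9.22 and 4.71. The list for ubiquitin ligase adaptors and protein turnover differed from this group, with Trim72 and Cmya5 and without Capn3 and Cand2. Of its 35 genes, 14 were in the table and 13 were among the 108. The exception, Fsd2, was 5.49 FPKM and 9.90 FPKM.

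Kinases and signalling regulators, 9 genes, ranged from 0.59 to 10.6 FPKM in 3bKO. Mylk2, the skeletal muscle kinase of the myosin regulatory light chain, was 1.12 FPKM in fl/fl against 9.58 FPKM in 3bKO, and its relative Mylk4 was 0.44 FPKM and 4.53 FPKM. Alpk3, in which human mutations cause cardiomyopathy, was 0.18 FPKM and 2.57 FPKM, and Alpk2 was 0.03 FPKM and 0.59 FPKM. Abra, an actin-binding activator of serum response factor signalling, had a ratio of 16.3. Camk2a, Prkcq, Map2k6 and Pkia, the inhibitor of protein kinase A, had ratios of 4.70, 8.28, 8.45 and 6.28.

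Among 8 modifying and metabolic enzymes, Pygm, the glycogen phosphorylase of muscle, was 4.41 FPKM in fl/fl against 43.6 FPKM in 3bKO. Pgam2, the muscle phosphoglycerate mutase of glycolysis, was 1.11 FPKM and 32.5 FPKM, and Ppp1r3a, which targets a phosphatase to glycogen, was 0.14 FPKM and 1.52 FPKM. Mettl21c, a lysine methyltransferase of muscle, stood at the lowest value in fl/fl and at 2.79 FPKM in 3bKO. Apobec2, a muscle member of the cytidine deaminase family, and the ADP-ribosyltransferase Art1 had ratios of 25.1 and 30.3. Padi2, which converts arginine to citrulline, had one of 8.11. Slc25a31, an ADP/ATP carrier best known from testis, stood at the lowest value in fl/fl and at 1.88 FPKM in 3bKO. The list for muscle energy metabolism was the only muscle list with genes lower in 3bKO. Of its 49 genes 10 were in the table, 4 were among the 108 (Pygm, Pgam2, Dhrs7c and Hjv), and 2 were lower in 3bKO. These were Pdk4, an inhibitor of glucose oxidation, at 1093 FPKM and 747 FPKM, and the fructose bisphosphatase Fbp2, at 31.9 FPKM and 17.1 FPKM. For regulators 4 of 9 were among the 108 and for secreted factors 1 of 4, beside 71 of 103 over all muscle lists. Over all listed genes it was 108 of 628. Ckm, a muscle metabolism gene left out by name and not on the list, was 7.53 FPKM in fl/fl against 161 FPKM in 3bKO.

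**Figure D4:**
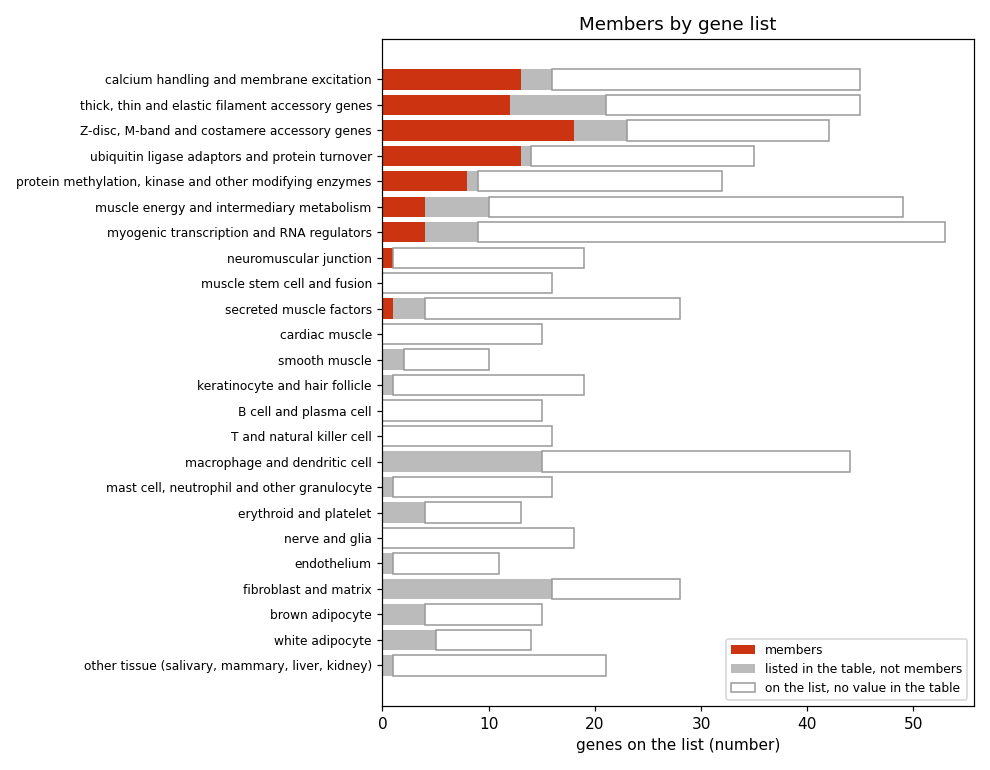
Number of genes on each of 24 lists that were among the 108 genes (red), had a value in the table without being among them (grey), or had no value in it (white). The 10 muscle lists at the top hold all 71 listed genes of the 108, and the 14 lists below hold 0.

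Genes of transcription, RNA and translation numbered 9. Mlf1, known from a leukemia fusion gene, stood at the lowest value in fl/fl and at 3.13 FPKM in 3bKO. Eef1a2, the elongation factor that adult muscle and neurons use in place of Eef1a1, was 1.30 FPKM and 22.6 FPKM, and Rpl3l, the muscle relative of ribosomal protein L3, was 0.37 FPKM and 7.29 FPKM. Both replace a widely expressed partner in mature muscle. The splicing regulators Rbm24 and Rbfox1 were 0.12 FPKM and 2.04 FPKM, and 0.28 FPKM and 1.61 FPKM, and the elongation factor Tcea3 was 0.79 FPKM and 8.73 FPKM. Fosb and Egr2, early response genes that many stimuli and tissue handling induce, were 0.67 FPKM and 5.34 FPKM, and 0.46 FPKM and 1.99 FPKM. Fos, left out by name, was 0.74 FPKM and 7.54 FPKM. H3c15 encodes a replication histone, whose mRNAs mostly lack a poly(A) tail, and stood at the lowest value in fl/fl and at 2.81 FPKM in 3bKO from poly(A)-selected RNA. Of 53 regulators on the list, 9 were in the table, all higher, and 4 were among the 108. The other 5 included Eya2, Tbx15 and Mef2c, with ratios of 3.20, 2.41 and 1.85.

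The fl/fl level is the denominator of the ratio that chose the genes, so the levels of muscle-list genes on either side of the threshold are given as a description. The 71 past it had a median of 0.23 FPKM in fl/fl, and 1 of them, Tpm2, was at 5 FPKM or more. The 32 others had a median of 7.52 FPKM, with 21 at 5 FPKM or more. The median difference in level, 3bKO less fl/fl, was 3.38 FPKM for the first and 6.78 FPKM for the second. Nothing is read from this contrast.

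Noncoding transcripts made up 6 of the 108 genes and a transcribed pseudogene 1, by the RefSeq annotation. Of the 6, 4 lay antisense to a gene of the table that was itself more than 4-fold higher, with positions in GRCm38.p6. Mhrt on the plus strand of chromosome 14, from 54968787 to 54974349, shared 3666 bp with Myh7, the slow myosin heavy chain, on the minus strand. Mhrt was 0.24 FPKM in fl/fl against 14.2 FPKM in 3bKO, and Myh7 was 0.29 FPKM and 35.8 FPKM. A930016O22Rik, on chromosome 7 from 19417466 to 19421417, lay wholly within Ckm, the muscle creatine kinase. It was 0.99 FPKM and 18.8 FPKM, and Ckm was 7.53 FPKM and 161 FPKM. Their ratios, 19 and 21.3, were close. Prr33 shared 8001 bp with Tnnt3, the fast troponin T, and was 0.70 FPKM and 3.24 FPKM against 12.4 FPKM and 440 FPKM. A630019I02Rik lay within Cmya5 and was 0.52 FPKM and 2.59 FPKM against 1.11 FPKM and 7.98 FPKM. The library protocol in the labels describes no step that marks strand, so that reads of such a transcript and of its partner cannot be told apart, and these 4 values are uncertain. The same holds for any of the 108 that overlap a coding gene with no value here, such as Cand2 with Rpl32, which encodes a ribosomal protein, and Tpm2 with Car9. H19, an imprinted noncoding RNA of fetal tissues and adult muscle, overlapped no listed gene and was 1.82 FPKM and 21.5 FPKM. Its neighbour Nctc1 stood at the lowest value in fl/fl and at 1.34 FPKM in 3bKO. The pseudogene Gm7367, which lies within the span of Snrpn, was 2.34 FPKM and 18.2 FPKM.

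**Figure D5:**
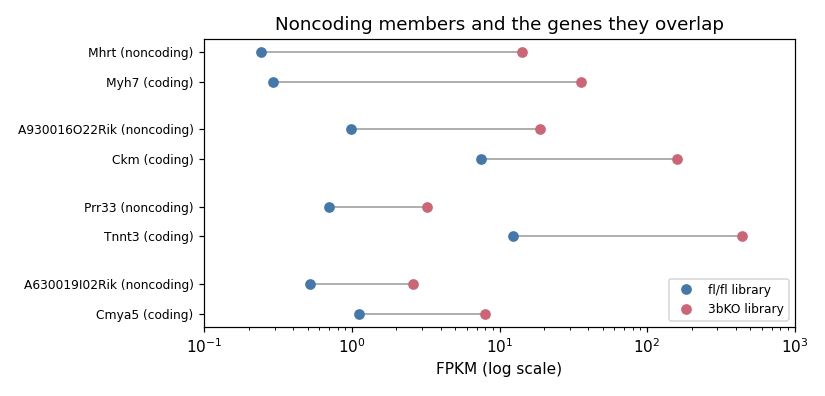
FPKM, on a log scale, of 4 noncoding genes and of the coding gene that each overlaps on the opposite strand, in the fl/fl library (blue) and the 3bKO library (red). Each pair is higher in 3bKO, and the coding gene is above its partner in both libraries.

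The remaining genes were of other kinds. Of 6 matrix and secreted or tethered factors, Hjv, a BMP co-receptor of muscle and liver, was 0.39 FPKM and 6.80 FPKM. The microfibril proteins Mfap2 and Mfap4 had ratios of 11 and 7.19, the cartilage protein Cilp 8.32, myocilin (Myoc) 7.66 and the collagen VI chain Col6a5 12.8, from 0.06 FPKM in fl/fl. These 6 genes lay between 0.77 and 6.80 FPKM in 3bKO. Of 28 genes on the list for fibroblasts and matrix, 16 were in the table and all 16 were higher, beside 81.5% of all listed genes. They summed to 317 FPKM in fl/fl against 636 FPKM in 3bKO. Their median log2 ratio was 1.06, beside 0.95 over all listed genes above 0.01 in both libraries. Their part in these 6 genes was not tested. Of 4 immune-related genes, the interferon-induced GTPase Gbp10 was 0.07 FPKM and 2.05 FPKM, the signalling regulator Rgs1 0.74 FPKM and 3.98 FPKM, and the receptor gene Cd300ld5 1.69 FPKM and 8.71 FPKM. Slc15a3, a peptide transporter of lysosomes, was 0.58 FPKM and 2.68 FPKM. Of 44 genes on the macrophage list, 15 were in the table and all 15 were higher, beside the same 81.5%. They summed to 116 FPKM in fl/fl against 262 FPKM in 3bKO, with a median log2 ratio of 1.14. Their part in these 4 genes was not tested. The last 9 genes were Tmem254c, Gm3435, 3425401B19Rik, Dynlt1f, Clip4, Shisa4, Lrrc2, Ptpro and Dpysl3, from 1.65 to 6.91 FPKM in 3bKO.

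The largest ratio above the lowest table value, that of Tmem254c, rested on 0.02 FPKM in fl/fl against 6.91 FPKM in 3bKO, so that rounding alone allows 276 to 461, and it was 58.4 with a pseudocount of 0.1 and 7.75 with one of 1. Tmem254c has 2 close relatives in RefSeq, of which 0 were in the table, and Dynlt1f has 3, again with 0 in the table, so that reads may have been divided among copies. The same limit holds for Cd300ld5, H3c15 and Gbp10, each from a family of similar genes. In fl/fl 12 of the 108 genes stood at 0.01 FPKM, the lowest value in the table, at which 20 genes (3.18%) stood in all. They included Mlf1, H3c15, Mettl21c, Asb11, Dhrs7c, Asb5, Slc25a31, Gm3435, Nctc1, Klhl30 and Ano5, and the 12 had 0.71 to 3.13 FPKM in 3bKO. No ratio is given for them. Of 15 genes on the brown adipocyte list, 4 were in the table (Dio2, Ppargc1a, Gk and Kcnk3). All 4 were lower in 3bKO, beside 116 of all 628 listed genes, and they summed to 299 FPKM in fl/fl against 181 FPKM in 3bKO. The direction of the rest of the list is not known. Ucp1, the defining gene of the tissue, had no value in the table used here. The lower direction was not particular to brown adipocyte genes. The erythroid and platelet list had 4 of 13 genes in the table, all 4 lower, with a sum of 823.7 FPKM in fl/fl against 447.5 FPKM in 3bKO.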

How the data were processed

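RNA of brown adipose tissue was poly(A)-selected and sequenced as 1 fl/fl and 1 3bKO library. The values are FPKM, deposited by the authors for 628 genes with 2 decimals, and the processing notes of the submitters name RSEM and mm10 (no version given). The thresholds of the filter that selected these genes are not given in the sources used here. The library depth and the mapped fragments are not given either, so no interval is given. The table holds no fold change or p-value. Gene identifiers were paired with RefSeq symbols of GRCm38.p6 (627 of 628 matched). Ratios were 3bKO over fl/fl with no pseudocount, and genes above 4 were kept after the named genes had been dropped. Values of 0.01 were treated as a floor. The rule for naming took every gene on a list, at the floor, among the 10 largest ratios (at least 1 FPKM in both libraries) or 10 highest levels, and 3 on each side of the threshold. The genes, lists and roles were chosen with earlier results of these data known, and the roles after the values were seen. The search for CAGCTG was also chosen then. Thresholds of 3 and 8, minimum levels and pseudocounts were tried as alternatives. Python 3.11.15, pandas 2.3.3, NumPy 2.4.6 and Matplotlib 3.10.9 were used, and the ratio rule was tested on simulated data. The values of some single genes are not reported here, although the counts and sums include them.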

Additional observations from a re-analysis of the deposited data

How the results depend on the processing

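Against 108 genes, of which 71 on muscle lists, a minimum of 1 FPKM in both libraries left 17 and 13, and a pseudocount of 1 left 41 and 32. Both settings act on genes that are low in fl/fl, of which 91 were below 1 FPKM. Thresholds of 3 and 8 gave 132 and 79 genes, a pseudocount of 0.1 gave 103, a minimum of 1 FPKM in 3bKO 102, and leaving out the genes at 0.01 gave 96. At a threshold of 3 there were 3 genes on lists of other cell types, against 0 at 4 and in the other settings. The median log2 ratio was 3.75 with genes at 0.01 kept and 3.48 without them. With these genes kept, it was 3.37 after both libraries were scaled to equal sums over the other listed genes. Of 96 single ratios, a pseudocount of 0.1 changed 25 by over 1.5 times and left 91 above 4, and one of 1 changed 85 and left 40 above 4. With any listed start, chosen after seeing the data, 16 of the 77 genes held a MEF2 match. No paired analysis was possible because there was 1 library per genotype, and leaving out a replicate was not possible for the same reason. Variation between animals cannot be judged in any setting.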

Other observations

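The 108 genes lay on 20 chromosomes, with 15 on chromosome 7, 10 on chromosome 2 and 9 on chromosome 11. The spread of all listed genes over chromosomes was not examined, so nothing is read from these counts. Of them, 17 lay within 100 kb of another of the 108, in 10 pairs. On chromosome 7 of GRCm38.p6, Prr33, Nctc1 and H19 lay between 142491080 and 142578146, beside the fast troponin genes Tnni2, at 5.18 FPKM in fl/fl against 193 FPKM in 3bKO, and Tnnt3. Myoz1 and Synpo2l lay 2404 bp apart on chromosome 14, and Rtn2 and Fosb 6531 bp apart on chromosome 7. Asb15 and Lmod2 were 24606 bp apart on chromosome 6, with 0 other coding genes between them, at 1.81 FPKM and 15.8 FPKM in 3bKO. How many such pairs genes of this number would show elsewhere was not examined.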
